A study of Takifugu alboplumbeus with 24 samples.

Results

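Period and cryptochrome genes encode the proteins that close the feedback loop of the vertebrate circadian clock. In that loop CLOCK and BMAL proteins switch on period and cryptochrome genes, whose products enter the nucleus and repress CLOCK and BMAL until they are degraded. Teleost fish carry extra copies of these genes, and in zebrafish some of the copies, among them a per2 and a cry1 gene, are switched on by light. The level of a clock gene therefore depends on the hour and on the light before sampling. The grass puffer (Takifugu alboplumbeus) spawns on the shore around the spring tides, which follow the new and the full moon, while the weaker neap tides follow the waxing and waning moons in between.

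All genes of the deposited table were taken whose symbol or product names them as a period or cryptochrome gene, which gave 11 of 24935 rows: 5 period genes and 6 cryptochromes. They are per1 (LOC101071436), per2 (LOC101074942), per3 (LOC101078561) and a pair of genes that the table calls period circadian protein homolog 2-like (LOC115246449, gene ID 115246449, and LOC101061913). The cryptochromes are a trio called cryptochrome-1-like (LOC101079934, LOC101072059 and LOC101062553), a pair called cryptochrome-2-like (LOC115248360 and LOC101061376) and 1 cryptochrome DASH-like gene (LOC101077564). The period genes differed in number of annotated transcripts, with 5 each for per1 and per2, 10 for per3, 4 for LOC115246449 and 7 for LOC101061913. The closest named proteins of the per2-like genes overlapped in the table. Both of those listed for LOC115246449 were also listed for LOC101061913, which had 1 more. Reads could thus have been shared between these genes. LOC101061376 also carried the annotation of a kinase-interacting protein, MAPK8 interacting protein 1, so its row may hold more than a cryptochrome.

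RNA was sequenced from wild males caught where they spawn, from a brain region with the pituitary, the hypothalamus and the ventral telencephalon. Collection was at about 19 h Japan time in 2020. There were 8 weekly dates with 3 libraries each, and the labels name no treatment and do not say whether a library is 1 fish. The spring tide dates were the new moons of May and June and the full moons of June and July (4 dates, 12 libraries). The neap tide dates were the waxing moons of May and June and the waning moons of June and July (4 dates, 12 libraries). The first 4 dates make up the first lunar cycle and the other 4 the second. Tide and moon phase differ between dates only, so they cannot be told apart from anything else that a date shared. The p-values measure only the spread between these libraries and dates that each test leaves over.

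Levels are FPKM, fragments scaled to the length of the transcript and to the mapped fragments of the library, and can be compared between genes. Read totals are unknown, but the steps that single reads leave in the values of 22 genes put the libraries' relative depth between 0.913 and 1.17. Correlations between libraries ran from 0.934 to 0.983, and no library was left out. The summed FPKM of a library was 508 ± 24.8 kFPKM at spring tides and 463 ± 26.1 kFPKM at neap tides (SD, n = 4 dates each). The 8 listed pituitary genes were all found, and their summed level ran from 20100 to 65836 FPKM in spring libraries and from 489 to 33911 FPKM in neap libraries. Their mean log2 level was 10.7 ± 0.349 in spring and 9.14 ± 0.444 in neap dates, and the lowest library was replicate 2 of the waxing moon in May at 4.54. The blood score (4 genes) was 8.44 in spring and 7.82 in neap dates, and the endothelium score (4 genes) was 4.10 ± 0.0841 in spring and 4.28 ± 0.0430 in neap dates. For neurons (5 genes) it was 6.98 in spring and 7.10 in neap dates, and for glia (5 genes) 7.92 in spring and 7.90 in neap dates. The meninges (4 genes) had 3.75 in spring and 3.63 in neap dates, and the photoreceptors (6 genes) 1.32 in spring and 1.196 in neap dates. Summed photoreceptor genes ranged from 0.85 to 393 FPKM in spring and from 0.74 to 183 FPKM in neap libraries, and no listed gene was at 0 in every library. The summed FPKM and a pituitary score of 5 genes, without the gonadotropin subunits cga, lhb and fshb, were fitted as covariates. Wherever the pituitary score is named below, it is this 5-gene score. The part of the other scores in the results was not tested. In such mixed tissue fewer cells of a type and less RNA per cell cannot be told apart.

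All 11 genes were expressed above a mean of 1 FPKM and were tested. Over the 24 libraries the mean level was highest for the cryptochrome-1-like gene LOC101079934 at 50.9 FPKM, followed by LOC101072059 at 23.0, per1 at 16.4, LOC115248360 at 12.6 and per3 at 10.97 FPKM. The others averaged between 2.53 FPKM (per2-like LOC101061913) and 7.90 FPKM (per2). Summed cryptochrome levels were 104 ± 7.00 FPKM at spring tides and 102 ± 4.86 FPKM at neap tides, and summed period levels 44.4 ± 11.3 FPKM at spring and 44.0 ± 6.27 FPKM at neap tides (SD, n = 4 dates each). The family totals thus lay within the spread between dates, while single members moved in opposite directions.

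Between spring and neap tides 3 of the 11 genes passed: both per2-like genes rose and per3 fell, while per1, per2 and the 6 cryptochromes did not pass. The fall of per3 lay in its full moons, and its new moons were level with its neap mean. The test was limma on log2(FPKM + 1), in which the libraries of 1 date formed a random block, with p-values adjusted over 17058 genes (Benjamini-Hochberg) and a threshold of 0.05. Its groups were the 4 moon phases, so its p-values measure the spread of libraries and dates within a phase. Differences between new and full moons, or between waxing and waning moons, are not part of that spread. They are part of the SDs over 4 dates and of the exact tests on date means below. All genes shared 1 within-date correlation (0.264). In the same comparison 5.63% of all tested genes were called, 1.32% as higher and 4.31% as lower at spring tides, against a median log2 change over all genes of -0.04.

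**Figure D1:**
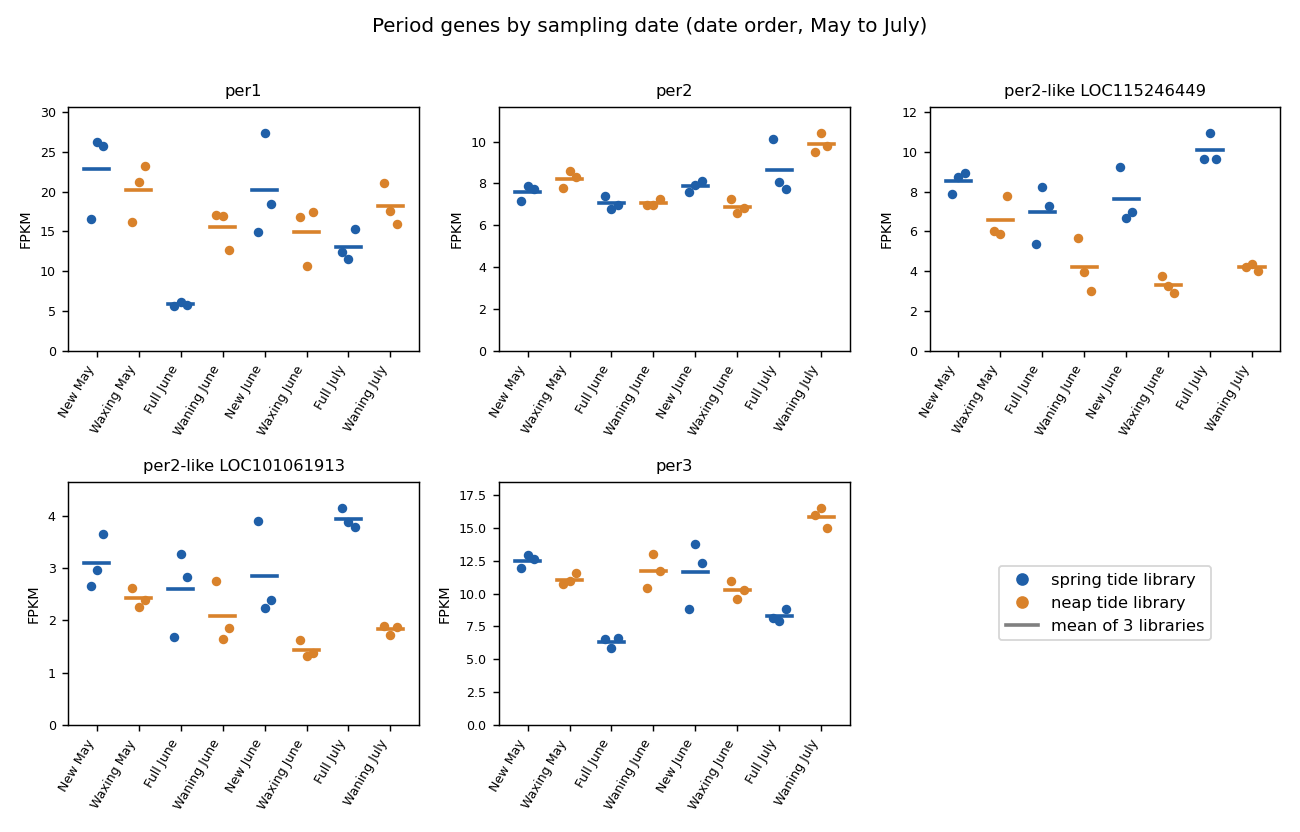
FPKM of the 5 period genes in each of 24 libraries (points) with the mean of each date (bars), dates in order from May to July on the x axis, and spring tide libraries in blue and neap tide libraries in orange. The per2-like gene LOC115246449 averaged 8.29 FPKM at spring and 4.56 FPKM at neap dates, whereas per1 and per3 were lowest at the full moon dates.

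The per2-like gene LOC115246449 belongs to the period repressors and had the largest tide change of the 11 genes. Its levels were 7.86, 8.73 and 8.94 FPKM at the new moon in May, 5.36, 8.21 and 7.28 at the full moon in June, 9.25, 6.69 and 6.97 at the new moon in June, and 9.63, 10.93 and 9.66 at the full moon in July. At neap tides they were 6.00, 5.85 and 7.79 FPKM at the waxing moon in May, 5.66, 3.97 and 2.98 at the waning moon in June, 3.76, 3.23 and 2.89 at the waxing moon in June, and 4.18, 4.36 and 4.02 at the waning moon in July. In 8 of 12 spring libraries the level lay above every neap library. The neap libraries that reached into the spring range were the 3 of the waxing moon in May and 1 of the waning moon in June. The means were 8.29 ± 1.35 FPKM at spring tides and 4.56 ± 1.39 FPKM at neap tides (SD, n = 4 dates each), a log2 change of 0.77 (SE 0.15, limma adjusted p = 0.0134).

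Each of the 4 spring dates had a higher mean than each of the 4 neap dates. The share of all genes whose dates or libraries were separated by tide to this degree was not counted, here or for the genes below. In order, the date means were 10.1 FPKM at the full moon in July, 8.51 at the new moon in May, 7.64 at the new moon in June, 6.95 at the full moon in June, 6.55 at the waxing moon in May, 4.20 at the waning moon in June, 4.19 at the waning moon in July and 3.29 at the waxing moon in June. Libraries of neighbouring dates did not overlap between the first and the second of these, the fifth and the sixth, and the seventh and the last. With date means as the units, an exact two-sided permutation test over 70 assignments gave p = 0.0286, the smallest it allows (0.0429 after adjustment over 3 such tests). That adjustment counts the ratio to per3 given below, which contains this gene and also reached the smallest p. The adjusted value therefore adds no evidence. The gene was picked with its tide change in these data known, and neither p accounts for that choice among 17058 genes. Fitted on the same 8 date means, limma gave an unadjusted p of 0.00326 and an adjusted p of 0.232, and called 1 of 17058 genes. The call held in all 24 fits that left out 1 library (log2 change 0.73 to 0.81), and the exact p was 0.0571 without replicate 2 of the full moon in June.

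The call ended without 3 of the 8 dates, with limma adjusted p of 0.163 without the new moon in May, 0.108 without the full moon in July and 0.0723 without the waning moon in July. With the summed FPKM of the library as a covariate the log2 change was 0.49 (adjusted p = 0.700), and with the pituitary score it was 0.78 (adjusted p = 0.0243).

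The second per2-like gene, LOC101061913, was expressed at a lower level and followed the first. Spring libraries ranged from 1.69 to 4.16 FPKM with a median of 3.12, and neap libraries from 1.31 to 2.76 FPKM with a median of 1.87. As for its partner, 8 of 12 spring libraries were above every neap library, and the highest and the lowest date were again the full moon in July (3.94 ± 0.196 FPKM) and the waxing moon in June (1.44 ± 0.170 FPKM). Its mean was 3.12 ± 0.585 FPKM at spring and 1.94 ± 0.416 FPKM at neap tides (SD, n = 4 dates each), with a log2 change of 0.48 (SE 0.13, limma adjusted p = 0.0411).

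That call sat close to the threshold. It ended in 15 of 24 fits that left out 1 library, at adjusted p between 0.0508 and 0.0659. Those libraries were all 3 of the new moon in May, the waxing moon in June and the full moon in July, replicate 2 of the full moon in June, replicates 2 and 3 of the waning moons in June and in July, and replicate 1 of the new moon in June. It also ended when library values were rescaled to a common sum (adjusted p = 0.0589), and with the pituitary score (0.0663) or the week (0.0607) in the model. It ended too with the summed FPKM (log2 change 0.31, adjusted p = 0.862), and with date means as samples (0.239). Leaving out whole dates ended it for the new moon in May (0.230), the waning moon in June (0.0921), the new moon in June (0.0770), the waxing moon in June (0.182), the full moon in July (0.221) and the waning moon in July (0.132).

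The levels of the per2-like pair were correlated with r = 0.97 over 8 date means, 0.92 over 24 libraries, and 0.77 over the libraries' deviations from their date means, on the log2 scale and as a description, since both genes share libraries and possibly reads. Summed into 1 row, an alternative chosen after the data were seen, the pair changed by 0.74 (SE 0.15, limma adjusted p = 0.0180). The summed level was 11.4 ± 1.93 FPKM in spring dates and 6.50 ± 1.78 FPKM in neap dates (SD, n = 4 dates each).

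**Figure D2:**
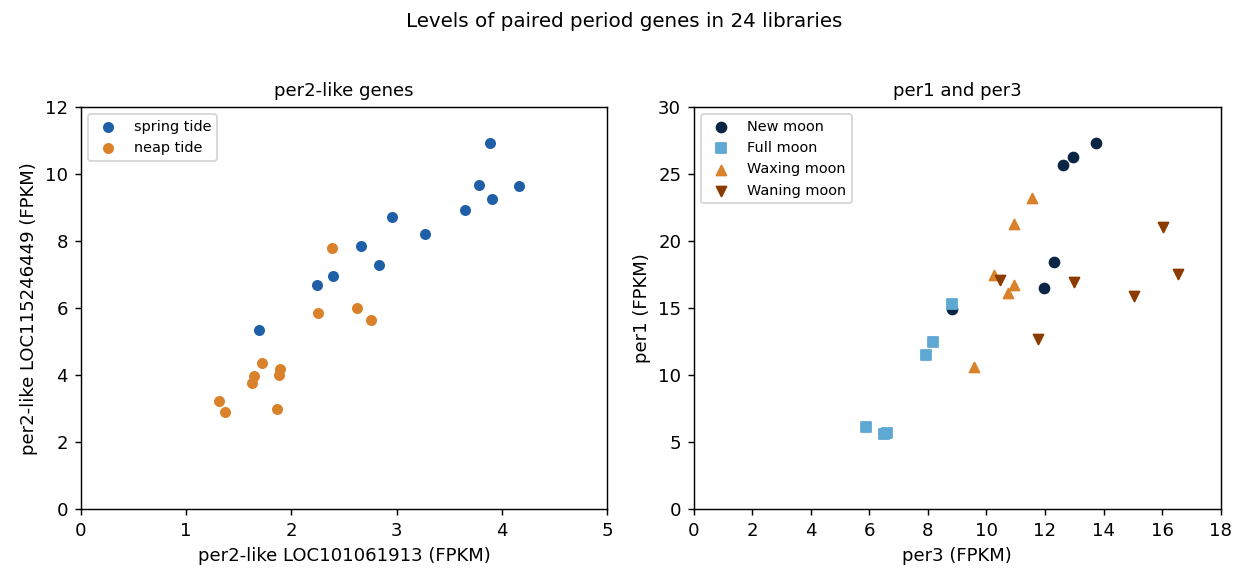
Left, FPKM of the per2-like gene LOC115246449 (y) against LOC101061913 (x) in 24 libraries, spring tide in blue and neap tide in orange. Right, FPKM of per1 (y) against per3 (x), by moon phase; the full moon libraries lie at the low end, between 5.60 and 15.28 FPKM for per1 and between 5.88 and 8.84 FPKM for per3.

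The gene named per2 itself did not pass. Which of the per2 and per2-like genes corresponds to the zebrafish per2 that responds to light was not examined. Spring libraries ranged from 6.79 to 10.13 FPKM with a median of 7.72, and neap libraries from 6.57 to 10.39 with a median of 7.52. Both groups covered nearly the same range. The means were 7.79 ± 0.662 FPKM in spring and 8.02 ± 1.38 FPKM in neap dates (SD, n = 4 dates each), a log2 change of -0.03 with a 95% interval of -0.19 to 0.13 (limma adjusted p = 0.843). Its highest date was the waning moon in July, at 9.50, 10.39 and 9.77 FPKM.

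The third period gene, per3, whose protein is thought in mammals to add little to core rhythm generation, was lower at spring tides. It had 11.98, 12.97 and 12.63 FPKM at the new moon in May, 6.51, 5.88 and 6.61 at the full moon in June, 8.84, 13.75 and 12.32 at the new moon in June, and 8.18, 7.95 and 8.84 at the full moon in July. Neap libraries had 10.72, 10.94 and 11.56 FPKM at the waxing moon in May, 10.45, 13.00 and 11.76 at the waning moon in June, 10.95, 9.58 and 10.26 at the waxing moon in June, and 16.03, 16.56 and 15.04 at the waning moon in July. The 7 spring libraries below every neap library were the 6 full moon libraries and 1 new moon library, while the other 5 new moon libraries lay inside the neap range. The means were 9.71 ± 2.89 FPKM in spring and 12.2 ± 2.50 FPKM in neap dates (SD, n = 4 dates each), a log2 change of -0.33 (SE 0.09, limma adjusted p = 0.0386). Within the spring tides the new moons, at 12.1 FPKM, were level with the neap mean, and the full moons lay below it at 7.33 FPKM.

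With date means as the units the exact permutation p for per3 was 0.257, and limma on date means gave an unadjusted p of 0.0219 and an adjusted p of 0.246. The exact test counts the difference between new and full moon dates as spread, which the limma tide test does not. The limma call ended in 9 of 24 fits that left out 1 library, at adjusted p between 0.0504 and 0.0645: replicates 1 and 3 of the new moon in May, 1 and 2 of the full moon in June, 2 of the waning moon in June, 1 of the waxing moon in June, 2 of the full moon in July, and 2 and 3 of the waning moon in July. It also ended with median-ratio scaling between libraries (adjusted p = 0.0652), quantile normalization (0.0659), and the pituitary score (0.0624), the week (0.0625) or the summed FPKM (log2 change -0.46, adjusted p = 0.323) in the model. Leaving out whole dates ended it for the new moon in May (0.197), the full moon in June (0.122), the new moon in June (0.0802), the waxing moon in June (0.0981), the full moon in July (0.0972) and the waning moon in July (0.186). In each library the log2 ratio of LOC115246449 to per3 joined both changes: it ran from -1.04 to 0.48 with a median of -0.11 in spring, and from -1.98 to -0.57 with a median of -1.64 in neap libraries. Date means of the ratio were -0.19 ± 0.45 in spring and -1.47 ± 0.49 in neap dates (SD, n = 4 dates each), a difference of 1.27 (exact permutation p = 0.0286, the smallest possible, and 0.0571 without replicate 1 of the new moon in June). Both genes of this ratio were picked with their directions known. LOC115246449 alone already gave the smallest possible exact permutation p, so the p of the ratio adds no evidence and the ratio is a description.

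The first period gene, per1, which in mammals responds quickly to light and to glucocorticoids, did not pass in the tide comparison. Spring libraries ranged from 5.60 to 27.35 FPKM with a median of 15.09, and neap libraries from 10.59 to 23.20 with a median of 17.01. The spring libraries held both the 3 highest and the 3 lowest levels of all. The means were 15.5 ± 7.66 FPKM in spring and 17.2 ± 2.43 FPKM in neap dates (SD, n = 4 dates each), with a log2 change of -0.29 and an interval of -0.67 to 0.09 (limma adjusted p = 0.322).

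**Figure D3:**
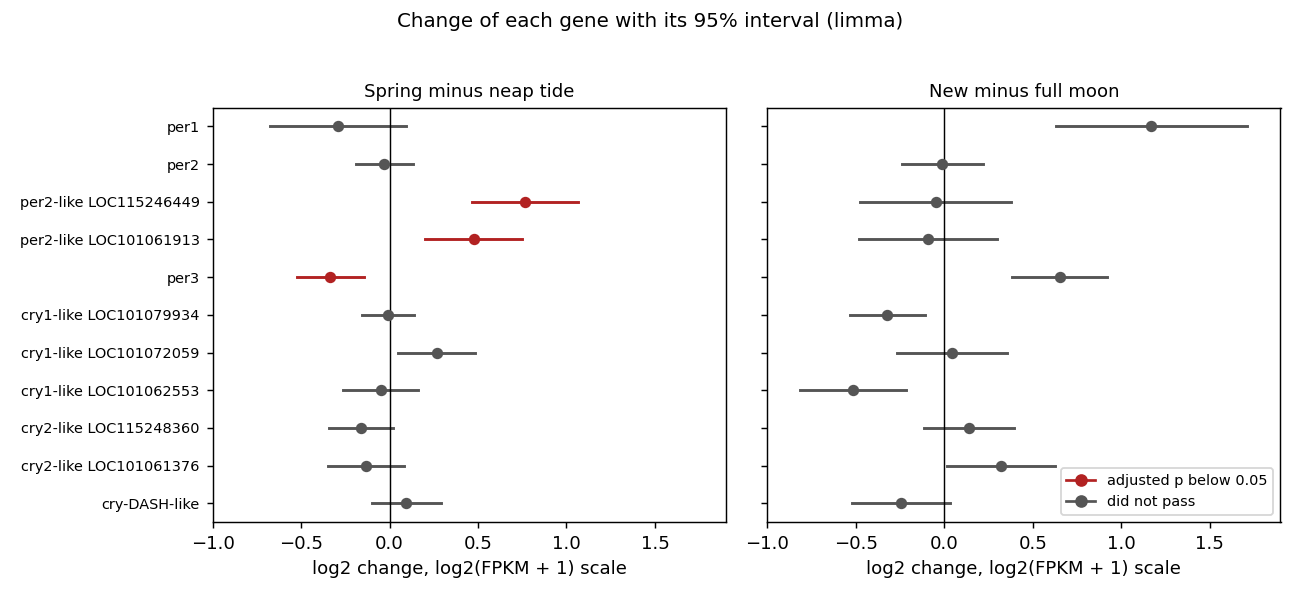
Log2 change (point) with its 95% interval (line) of the 11 genes on the log2(FPKM + 1) scale, spring minus neap tide on the left and new minus full moon on the right; red marks an adjusted p below 0.05. The per2-like genes (0.77 and 0.48) and per3 (-0.33) passed on the left and no gene passed on the right, where per1 (1.17) and per3 (0.65) lay farthest above 0.

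The 6 cryptochromes did not pass in the tide comparison (0 of 6 by limma). Whether each of the cryptochrome-1-like and cryptochrome-2-like genes encodes a repressor of CLOCK and BMAL was not examined. The share of all genes at an unadjusted p below 0.05 was not counted for the tide. The count of cryptochromes below it, 1 of 6, is therefore not read as a result. That gene was the cryptochrome-1-like LOC101072059, with 21.03 to 29.28 FPKM and a median of 25.06 in spring libraries, and 15.01 to 28.94 FPKM and a median of 20.61 in neap libraries. Spring levels sat in a narrow band, and the neap levels fell into low dates (17.5 FPKM at the waning moon in June and 15.7 at the waxing moon in June) and higher ones (23.9 at the waxing moon in May and 27.1 at the waning moon in July). Its log2 change was 0.27 with an interval of 0.05 to 0.49 (limma adjusted p = 0.115). It passed only without the waxing moon in May, at 0.41 (adjusted p = 0.00339), in a fit that called 5639 of 17058 genes.

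**Figure D4:**
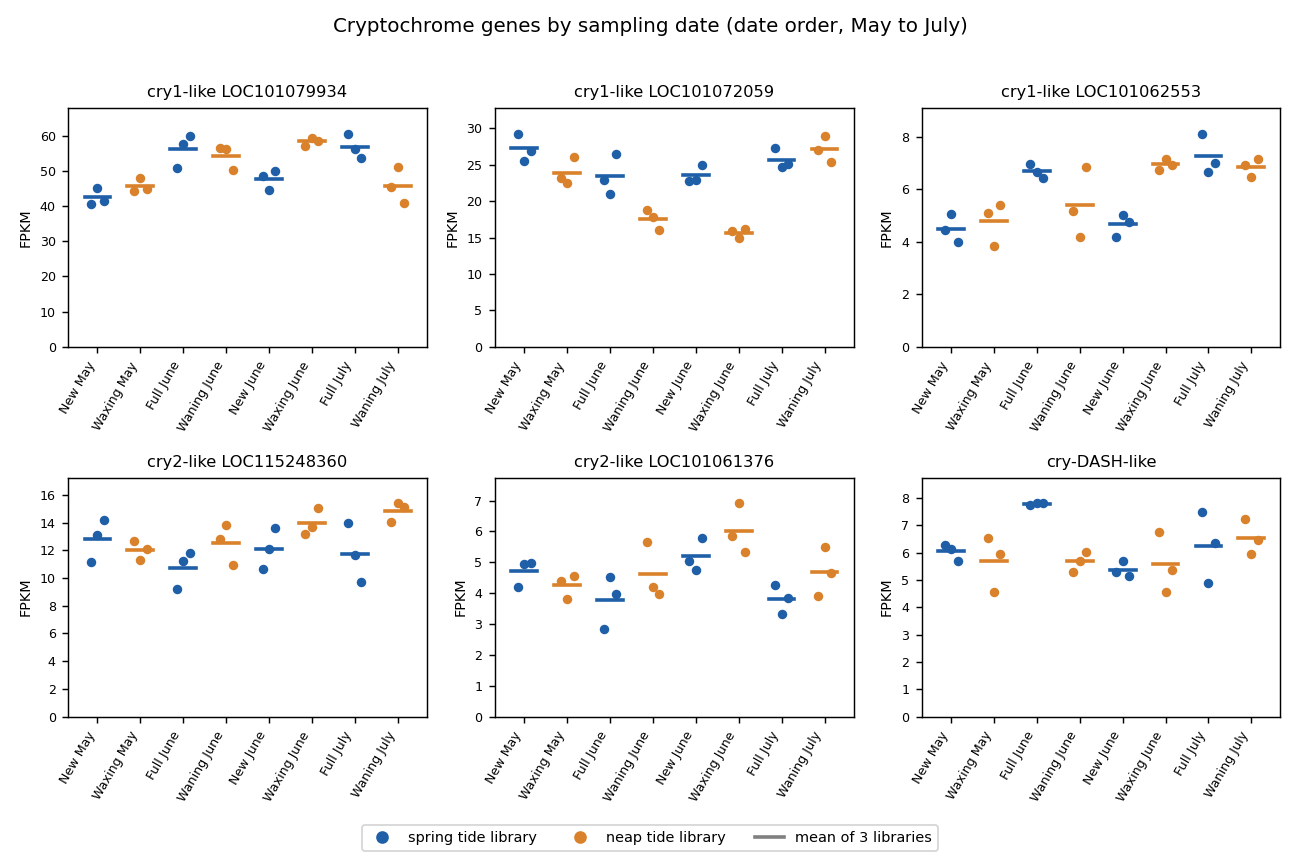
FPKM of the 6 cryptochrome genes in each of 24 libraries (points) with the mean of each date (bars), dates in order from May to July on the x axis, and spring tide libraries in blue and neap tide libraries in orange. The cryptochrome-1-like gene LOC101072059 was lowest at the waning and waxing moons of June, at 17.5 and 15.7 FPKM, and LOC101079934 ranged from 42.4 to 58.4 FPKM between dates.

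The most abundant cryptochrome, LOC101079934, averaged 50.8 ± 6.94 FPKM at spring and 51.1 ± 6.35 FPKM at neap dates (SD, n = 4 dates each). The log2 difference of -0.01 had an interval of -0.16 to 0.14 (limma adjusted p = 0.952). The cryptochrome-1-like LOC101062553 had a change of -0.05 (interval -0.26 to 0.16), the cryptochrome-2-like LOC115248360 of -0.16 (-0.34 to 0.02), LOC101061376 of -0.13 (-0.35 to 0.08) and the DASH-like gene, of a group known for repair of ultraviolet damage in DNA, of 0.10 (-0.10 to 0.29). Their limma adjusted p-values ran from 0.235 to 0.792.

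The kinds of spring tide were compared next. No member passed between new and full moons by limma (0 of 11), where 0.0176% of all tested genes did (0.0117% higher and 0.00586% lower at the new moon), but 5 of 11 members had an unadjusted p below 0.05, as did 12% of all genes. The period gene per1 had 16.51, 26.31 and 25.70 FPKM at the new moon in May and 14.90, 27.35 and 18.45 in June, against 5.60, 6.12 and 5.70 at the full moon in June and 12.44, 11.52 and 15.28 in July. New and full moon libraries met only at 14.90 and 15.28 FPKM, and the full moon in June stood below all other dates. The log2 difference was 1.17 (SE 0.26, limma adjusted p = 0.126), with phase means of 21.5 FPKM at new and 9.44 FPKM at full moons. It passed only where a whole date was left out: the waxing moon in May (adjusted p = 0.0350), the waxing moon in June (0.0334) or the full moon in July (log2 difference 1.69, adjusted p = 0.0197). Without the full moon in June the log2 difference was 0.65 (adjusted p = 0.349). The adjusted p was 0.732 without the new moon in May, 0.673 without the new moon in June, 0.203 without the waning moon in June and 0.162 without the waning moon in July.

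In per3, which did not pass, no new moon library was below a full moon library, and the groups met at 8.84 FPKM. How many of all genes were separated in this way was not counted. Its phase means were 12.1 FPKM at new and 7.33 FPKM at full moons, a log2 difference of 0.65 (SE 0.13, unadjusted p = 4.5e-05, limma adjusted p = 0.110). It passed without replicate 3 of the full moon in June (adjusted p = 0.0324, in a fit that called 118 of 17058 genes), without replicate 1 of the new moon in June (0.0139), without the waxing moon of May (0.0307) or of June (0.0290), and with the summed FPKM as a covariate (0.0372). In the fits without the waxing moon of May and of June 3 members passed, against 0.932% and 0.885% of all genes, and with the summed FPKM 1 member, against 0.0234%. The levels of per1 and per3 correlated with r = 0.85 over the date means, 0.81 over the libraries and 0.62 over deviations from date means, again as a description. These genes share libraries.

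For a pair of cryptochromes, which did not pass either, the new moon values lay below the full moon values. LOC101062553 had 4.45, 5.08, 4.00, 4.19, 5.04 and 4.77 FPKM in new moon libraries, against 6.98, 6.66, 6.44, 8.13, 6.68 and 7.01 FPKM in full moon libraries. LOC101079934 ranged from 40.60 to 50.05 FPKM in new moon libraries and from 50.95 to 60.59 FPKM in full moon libraries. In neither gene did the groups overlap, but the share of all genes separated in this way was not counted. The log2 differences were -0.52 (SE 0.15, limma adjusted p = 0.209) and -0.32 (SE 0.10, adjusted p = 0.249). LOC101062553 passed without the waxing moon of May (adjusted p = 0.0363) or of June (0.0432). For the cryptochrome-2-like LOC101061376 the difference was 0.32 (adjusted p = 0.394), with 4.21 to 5.78 FPKM at new and 2.83 to 4.51 FPKM at full moons.

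The per2-like genes had similar levels at both kinds of spring tide. LOC115246449 had phase means of 8.07 FPKM at new and 8.51 FPKM at full moons (log2 difference -0.05, interval -0.47 to 0.38), and LOC101061913 of 2.97 FPKM at new and 3.27 FPKM at full moons (-0.09, interval -0.48 to 0.30). Between waxing and waning moons no member passed by limma (0 of 11, with 0% of all genes called), and 1 of 11 had an unadjusted p below 0.05, against 2.85% of all genes. That gene was per3, at 10.7 FPKM at waxing and 13.8 FPKM at waning moons (log2 difference -0.33, adjusted p = 0.997).

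From May to July no member had a trend per week that passed in limma (0 of 11, with 0% of all genes called). At an unadjusted p below 0.05 there was 1 of 11, against 8.48% of all genes: the cryptochrome-1-like LOC101062553, with a slope of 0.08 log2 units a week (SE 0.02, adjusted p = 0.391). Its date means, in order of the weeks, were 4.51, 4.79, 6.69, 5.41, 4.67, 6.95, 7.27 and 6.86 FPKM. They did not climb evenly, and the new moon in June was as low as the first dates.

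The tide change of no member differed between the lunar cycles by limma (0 of 11 adjusted and 0 of 11 at an unadjusted p below 0.05, with 0% and 3.56% of all genes). For LOC115246449 the spring minus neap change was 0.48 in the first and 1.05 in the second cycle, a difference of 0.56 with an interval of -0.002 to 1.13 (adjusted p = 0.993). In the second cycle its mean was 8.86 FPKM in spring and 3.74 FPKM in neap dates, and in the first cycle 7.73 FPKM in spring and 5.38 FPKM in neap dates. For per3 the change was -0.31 in the first and -0.35 in the second cycle, and for per1 it was -0.56 in the first and -0.02 in the second.

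Measured against the spread between libraries of the same date, 9 of 11 members differed among the 8 dates (limma F test, adjusted p below 0.05), as did 41.3% of all tested genes. The DASH-like gene (adjusted p = 0.0844) and the cryptochrome-2-like LOC115248360 (0.0948) did not pass. The ratio of the highest to the lowest date mean was 3.93 for per1, 3.06 and 2.74 for the per2-like genes LOC115246449 and LOC101061913, and 2.51 for per3. In per2 and the cryptochromes it lay between 1.38 and 1.74, so the date means of 4 of the period genes spread over a wider range than those of any cryptochrome. In per1 the full moon in June (5.81 ± 0.276 FPKM) lay below the next date, the full moon in July (13.1 ± 1.96), without overlap of libraries, and the other neighbours in the order overlapped. In per3 the waning moon in July was highest (15.9 ± 0.772 FPKM) with no overlap with the next date, and the full moons of July (8.32 ± 0.462) and June (6.33 ± 0.396) were lowest, each apart from its neighbours.

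Other clock genes were counted from lists in the same tide comparison. The positive arm, whose proteins bind DNA and drive period and cryptochrome transcription, had 6 tested genes. Of these 1 was higher and none lower, against 1.32% and 4.31% of all tested genes. The list median was 0.04 against -0.04 over all genes. The gene that passed was a bmal2 gene, LOC101065207, with 11.3 ± 1.87 FPKM in spring and 9.44 ± 0.990 FPKM in neap dates (log2 change 0.24, SE 0.07, limma adjusted p = 0.0480). Within the spring tides it had 9.99 FPKM at new and 12.7 FPKM at full moons (limma adjusted p = 0.245). The other bmal2 gene, LOC101072137, had 14.0 FPKM in spring and 14.5 FPKM in neap dates (log2 change -0.03, limma adjusted p = 0.910). A further list held 14 tested genes: kinases, F-box proteins and a deubiquitinase that modify PER and CRY proteins or set their stability, and the regulators ciart, cipc and nono. None of these passed by limma (median -0.11). At an unadjusted p below 0.05 there were 3, a count not read as a result, since the share of all genes at that threshold was not counted.

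Of 19 other clock repressors and output factors, 4 were lower and none higher, against 4.31% and 1.32% of all tested genes. The list median was 0.07. Their limma log2 changes were -0.60 for bhlhe41 (SE 0.11, adjusted p = 0.0134), -0.67 and -0.59 for the tef genes LOC101073097 (SE 0.16, adjusted p = 0.0234) and LOC115246496 (SE 0.12, adjusted p = 0.0182), and -0.26 for the nr1d2 gene LOC101077948 (SE 0.08, adjusted p = 0.0488). In levels, they were bhlhe41, a repressor of CLOCK and BMAL targets, at 7.74 ± 4.07 FPKM in spring and 11.2 ± 1.71 FPKM in neap dates, a pair of tef genes, which encode activators of D-box genes, and an nr1d2 gene, which encodes a repressor. The tef gene LOC101073097 had 19.5 ± 7.56 FPKM in spring and 30.04 ± 3.51 FPKM in neap dates, LOC115246496 had 5.75 ± 1.40 FPKM in spring and 8.97 ± 0.952 FPKM in neap dates, and nr1d2 (LOC101077948) had 36.4 ± 9.21 FPKM in spring and 42.6 ± 2.31 FPKM in neap dates (SD, n = 4 dates each). Within the spring tides this nr1d2 gene had 43.6 FPKM at new and 29.1 FPKM at full moons, so only the full moons lay below the neap mean. For bhlhe41 the new moons, at 11.2 FPKM, were level with the neap mean. The tef gene LOC101073097 had 25.7 FPKM at new and 13.4 FPKM at full moons, and LOC115246496 had 6.845 FPKM at new and 4.65 FPKM at full moons. In both tef genes the full moons thus lay farther below the neap mean than the new moons. The other nr1d2 gene, LOC445936, had 50.4 FPKM in spring and 45.4 FPKM in neap dates (log2 change 0.13, limma adjusted p = 0.654). The gene named tef itself, the most abundant of the tef genes, had 64.7 FPKM in spring and 62.0 FPKM in neap dates (log2 change 0.07, limma adjusted p = 0.779). Between new and full moons bhlhe41 was the 1 gene of these lists that passed, where 0.0176% of all tested genes did. It had 11.2 FPKM at new and 4.31 FPKM at full moons (log2 difference 1.19, SE 0.16, limma adjusted p = 0.00259). At an unadjusted limma p below 0.05 between new and full moons there were 12 of these 19 genes, against 12% of all genes. In the positive arm there was 1 of 6, among the modifiers 3 of 14, and in the lists that follow 2 of 7 and 2 of 12. A list of 7 tested genes held DNA repair genes and lonrf1 genes, which share light induction with period and cryptochrome genes in zebrafish. None passed in the tide comparison by limma (0 at an unadjusted p below 0.05). None of 12 genes that respond to cAMP or glucocorticoids as per1 does in mammals passed either (5 at an unadjusted p below 0.05, median 0.20). For the tide the share of all genes at that unadjusted threshold was not counted, so these counts have no background beside them. Genes below it were common: an nr1d1 gene of the repressor list (LOC101076758) with an unadjusted limma p of 0.0493 had an adjusted p of 0.188. These counts are therefore not read as results.

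The genes whose date means were most like those of LOC115246449, out of 15795 compared by Pearson r over 8 date means, were glp2r, the receptor of glucagon-like peptide 2 (r = 0.99 over dates and 0.51 over 24 libraries), hsd3b7, an enzyme of bile acid synthesis (0.99 and 0.92), lgmn, the protease legumain (0.98 and 0.78), an hnRNP C gene, LOC101071248 (0.98 and 0.76), and ifi35 (0.98 and 0.49). Of these hsd3b7 was also close library by library, at 41.9 FPKM in spring and 17.6 FPKM in neap dates. For per3 they were the glycosyltransferase-like LOC101075098 (0.97 and 0.60), a zinc finger gene, LOC101065537 (0.96 and 0.85), atpsckmt (0.95 and 0.73), yeats2 (0.95 and 0.85) and LOC101064854 (0.95 and 0.53). Each r over dates rests on 8 points from shared libraries and is given as a description.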

How the data were processed

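The deposited table gives 1 FPKM value per gene and library for 24 libraries (poly-A selected, strand-specific, paired reads of 100 bases, per the labels' protocols). The authors' steps are known by tool name only: HISAT2 2.0.4 and RSEM 1.2.12, per the submitters' processing notes. The genome assembly was not given in the sources used here. FPKM is set by the mapped total of a library, so a change in abundant transcripts, such as pituitary hormones, shifts the values of all other genes. Estimates for near-identical genes depend on how shared reads were divided.

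Values were taken as log2(FPKM + 1) and genes with a mean of at least 1 FPKM (17058) were fitted with limma 3.58.1 (statmod 1.5.0, R 4.3.3). The 4 moon phases were groups, the sampling date was a random block (within-date correlation 0.264), the variance followed intensity, and p-values were adjusted by Benjamini-Hochberg with a threshold of 0.05. Week, lunar cycle and date were tested in separate fits with the same settings, except that the fit of the dates had no block. Since a pseudocount of 1 was added, fold changes of low genes are understated. Exact two-sided permutation tests used the 8 date means. The fits were tested on simulated data in which all genes shared 1 within-date correlation, as the fits with a block assume. That test cannot show how the fits behave for genes whose dates differ more.

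All 11 genes are named. For other clock lists, counts and the genes that passed the tide comparison are given. For likeness, the 5 named genes with the highest r over date means are given. The genes and lists were chosen with earlier results of these data known, and the lists were widened to genes named by product only after the table was seen. Alternatives covered the pseudocount, the filter, scaling, the trend, date means, covariates, the replicate number, the week, and leaving out each library and each date.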

Additional observations from a re-analysis of the deposited data

Results flagged for a closer look

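In groups of 4 to 10 values, 4 of 66 tested groups held a value that stood apart from the rest by Dixon's criterion, where chance flags about 1 in 20. The per2-like gene LOC101061913 had 2.76 FPKM in 1 waning moon library (replicate 1 of June), and the other waning moon libraries had 1.65 to 1.89 FPKM. The per3 gene had 8.84 FPKM in 1 new moon library (replicate 1 of June), against 11.98 to 13.75 FPKM in the other new moon libraries. The DASH-like cryptochrome had a date mean of 6.55 FPKM at the waning moon in July, and the other neap dates had 5.57 to 5.69 FPKM. The cryptochrome-1-like gene LOC101062553 had 8.13 FPKM in 1 full moon library (replicate 1 of July), and the other full moon libraries had 6.44 to 7.01 FPKM.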

How the results depend on the processing

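The number of the 11 genes called between spring and neap tides, 3 as reported, was 0 with date means as samples (where 1 of 17058 genes was called in all) and 0 with the summed FPKM as a covariate (5 genes in all). It was 1 with the pituitary score (437 genes in all) or the week (449) as a covariate, and 1 to 3 when each library was left out in turn (285 to 1978 genes in all, against 961 as reported). Without single dates it was 0 for the new moon in May, the full moon in July and the waning moon in July (3, 14 and 19 genes in all), 1 for the new moon and the waxing moon in June (118 and 64), 2 for the full moon and the waning moon in June (1148 and 64), and 4 for the waxing moon in May (5639). Between new and full moons the number, 0 as reported, was 1 with the summed FPKM as a covariate (4 genes in all, against 3 as reported), 0 to 1 without single libraries (118 genes in all without replicate 3 of the full moon in June), 3 without the waxing moon of May or of June (159 and 151), and 1 without the full moon in July (3). The causes were not tested. Exact tests without single libraries gave differences of 0.72 to 0.81 for LOC115246449 (p 0.0286 to 0.0571), -0.37 to -0.29 for per3 and 1.19 to 1.35 for their ratio.

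No called value changed sign, and 119 of 2320 values without a call did. Rescaling to a common sum moved the all-gene median of the tide change to -0.15, against -0.04 as deposited. With the replicate number as a block the tide call count was 3, and the adjusted p was 0.0168 for LOC115246449, 0.0479 for LOC101061913 and 0.0427 for per3. Whether libraries with the same number were paired is not known. Their deviations from date means had a median correlation of 0.02 (-0.30 to 0.24), and 23 of 84 pairs exceeded 0.1. For libraries with different numbers the median was -0.01 (-0.30 to 0.35), and 30 of 168 pairs exceeded 0.1. Read depth was unknown, which limits what can be said of the low gene LOC101061913.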
